A study of Homo sapiens with 4 samples.

Results

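The messages of 30 DNA repair genes were followed in SF3B6 immunoprecipitates (IP) and in input RNA of MDA-MB-231 cells, a human triple-negative breast cancer line. SF3B6 belongs to SF3b, which lets the U2 snRNP hold the branch point of an intron, and the series asks which transcripts the protein contacts. The genes were chosen by symbol from a table of 18276 genes, and all 30 were listed in it. Of the 4 libraries, 2 were SF3B6 IP and 2 were Input, called biological replicates in the design text. All 4 came from cells irradiated once with ultraviolet light at 400 mJ/cm2, whose lysate was digested with micrococcal nuclease, per the labels' protocols. The IP libraries were made with 5 ug of SF3B6 antibody. An IgG control is named in those protocols but was not used here, so RNA that sticks to beads or antibody cannot be told apart from RNA bound by SF3B6. The cell line entries differ in their last digit between samples, while all titles give the same line, which was used.

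DNA repair genes keep the genome intact through several routes. Homologous recombination copies the lost sequence from a sister chromatid, while end joining ligates broken ends directly. The Fanconi anaemia genes remove crosslinks between strands, excision and mismatch repair replace damaged or mispaired bases, and checkpoint kinases halt the cell cycle while the damage is repaired. Loss of BRCA1 or BRCA2 leaves breast tumours dependent on other routes, which is the basis of PARP inhibitor treatment. The genes were set in 5 classes: homologous recombination (9 genes), end joining (5), checkpoint (5), Fanconi anaemia (4), and single strand, excision and mismatch repair (7).

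Depth set the limits of every comparison. The gene counts summed to 55492 and 30431 in SF3B6 IP 1 and 2, against 317190 and 519836 in the inputs. Levels are given as normalised CPM, counts per 1e+06 of the total of tested genes after TMM scaling, so a single count stood for 22.0 CPM in SF3B6 IP 1 and 43.6 CPM in SF3B6 IP 2. The 7 markers expected of this line summed to 178 and 80 counts in IP, against 1506 and 2698 in input, most of them from AXL (97 and 46 against 871 and 1537). CAV1 had 5 and 0 against 41 and 91, and LDHB 0 and 0 against 0 and 1. Of 6 genes expected to be low in this line, ESR1 and PGR are not rows of the table used here. The other 4 summed to 9 and 4 counts in IP, against 83 and 169 in input, mostly ERBB2 (7 and 3 against 76 and 147), while GATA3 had 0 and 1 against 4 and 15 and CDH1 and EPCAM at most 4 in any library. ERBB2 was thus not low here, with more input counts than CD44 (52 and 94), a marker expected of the line. Of 6 markers of other cells, 3 are rows of the table and summed to 6 and 2 counts in IP, against 20 and 30 in input, nearly all from COL1A1, a collagen of fibroblasts (5 and 2 against 19 and 29). In bulk RNA, fewer cells with a message and less of it per cell cannot be told apart.

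The repair messages were sparse in the IP libraries. In all, the 30 genes had 82 and 27 counts in SF3B6 IP 1 and 2, against 489 and 877 in Input 1 and 2. Per library this was 1806 and 1176 CPM in IP, against 1720 and 1788 CPM in input, so the groups overlapped. The ratio of pooled counts, IP over input, was 0.904 with a 95% interval of 0.737 to 1.10. That interval, like all of those given for ratios, is exact and covers counting error only, since reads without molecular identifiers are not independent molecules. The IP libraries differed from each other beyond counting error (chi-square per degree of freedom 4.33), so all these intervals are too narrow. The same ratio over all 13464 nuclear protein-coding genes was 0.955. Of the 30 genes, 4 had at least 10 IP counts (LIG1, FANCA, ERCC2 and PRKDC), 4 had 4 to 9, 18 had 1 to 3 and 4 had 0. All 30 had counts in Input 2, 28 in Input 1, 24 in SF3B6 IP 1 and 17 in SF3B6 IP 2, and 15 had counts in both IP libraries. The median gene had 2 IP counts and 21 input counts, against 1 and 14 for nuclear protein-coding genes as a whole.

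**Figure D1:**
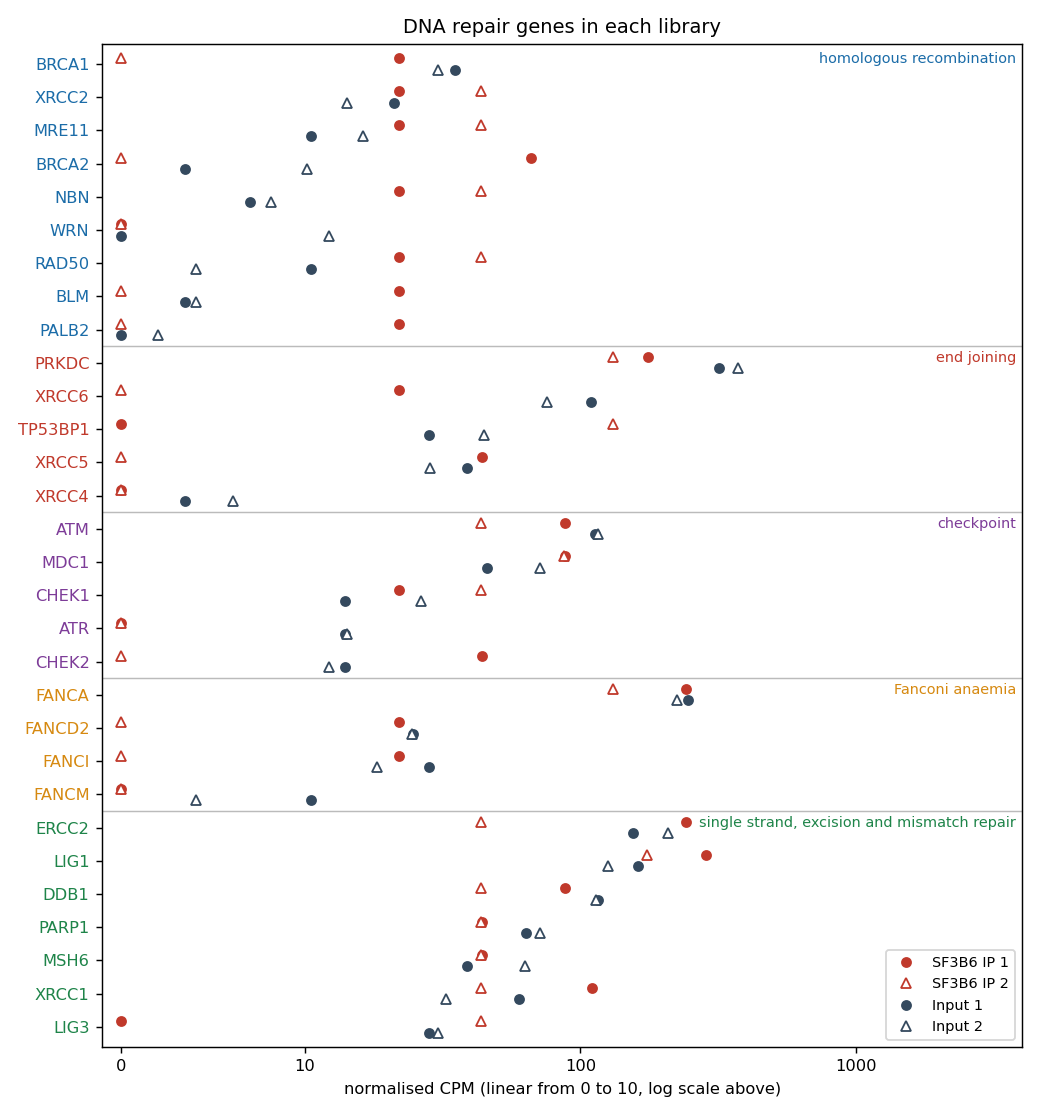
Normalised CPM (x axis, linear from 0 to 10 and logarithmic above) of the 30 DNA repair genes (rows, by class and falling input counts) in SF3B6 IP 1 and 2 (red, upper points of a row) and Input 1 and 2 (dark, lower points). Many IP points lie at the step of a single count, 22.0 CPM in SF3B6 IP 1 and 43.6 CPM in SF3B6 IP 2, while the IP points of PRKDC, at 176 and 131 CPM, lie below its input points of 317 and 373 CPM.

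No repair gene passed the test between IP and input. The default expression filter kept 9 of the 30 genes (30% of them, against 25.8% of nuclear protein-coding genes), and it favours genes with many counts, so these 9 do not stand for the list. A gene had to reach 53.7 CPM of the library total in 2 libraries. XRCC6 and PARP1 reached it in the inputs alone and so could not have been kept with low input, while MDC1 reached it in both IP libraries and 1 input, so counts of direction over the 9 are a description. By edgeR's quasi-likelihood test with Benjamini-Hochberg adjustment over all tested genes, 0 of the 9 were higher and 0 were lower in IP. Among all 3668 tested genes, 2.7% were called higher and 1.36% lower, and among the nuclear protein-coding ones 1.33% and 1.44%. At an unadjusted p under 0.05, 0 of the 9 were higher and 2 lower (PRKDC and XRCC6), beside 7.93% and 7.72% of all tested genes. DESeq2 also called 0, with no adjusted p for 5 of the 9. In simulated libraries of this depth the edgeR test found 10% of genes changed 2-fold, and 93% of those raised but 21% of those lowered 4-fold, so a 2-fold difference of 1 gene was mostly not detectable. The log2 fold changes, IP minus input, were above 0 for 2 of the 9 and below 0 for 7, with a median of -0.63 against -0.06 over all tested genes. Both IP libraries lay above both inputs for 2 of the 9 (LIG1 and MDC1) and below for 5, beside 20.9% and 28.5% of all tested genes and 19.3% and 29.1% of the nuclear protein-coding ones. Calls appeared where the scaling came from FPKM: 7 of the 9 were lower with FPKM-implied totals (57.2% of all tested genes), 7 with limma on log2(FPKM + 1) (69.5%) and 5 with limma on log2(FPKM + 0.1) (50.8%), settings under which most genes were called lower.

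**Figure D2:**
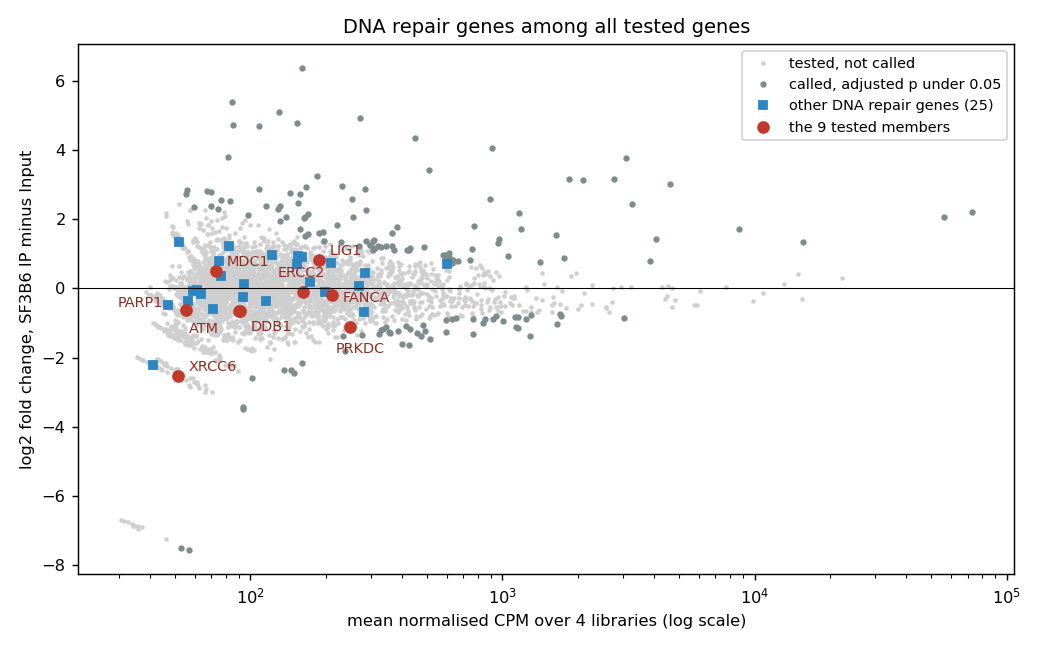
Log2 fold change, SF3B6 IP minus Input (y axis), against mean normalised CPM over the 4 libraries (x axis, log scale) for all 3668 tested genes. The 9 tested repair genes (red) lie among the uncalled genes (light grey), between -2.54 for XRCC6 and 0.83 for LIG1, and the 25 tested genes of a wider repair list (blue) are uncalled too.

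Homologous recombination genes had few counts, yet their sum was higher in both IP libraries than in both inputs. The 9 genes together had 10 and 4 counts in IP, against 26 and 50 in input. That is 220 and 174 CPM in IP, against 91.5 and 102 CPM in input, a mean of 197 ± 32.5 against 96.7 ± 7.38 CPM (SD, n = 2 libraries each). The IP SD is about the step of a single count (22.0 and 43.6 CPM in SF3B6 IP 1 and 2), so it does not measure precision. The pooled ratio was 2.09 with an interval of 1.09 to 3.72, from 14 IP counts where the input share would give 6.71. That interval leaves out the spread between libraries, so its exclusion of 1 is uncertain. On the log2 scale the ratio of means was 1.03, and it turned to -0.59 with the library totals implied by the FPKM table, a scaling that put the median of all tested genes at -1.65. Genes with few input counts leaned upward as a whole: over the 8211 nuclear protein-coding genes with 1 to 25 input counts, the range of these 9, the pooled ratio was 1.10, against 0.911 for those with over 100. Input counts both set these groups and form the denominator of the ratio, so the grouping and the ratio are not independent. The part of counting depth in the class sum was not tested.

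The sum was spread over 8 of the 9 genes, with at most 3 IP counts each. BRCA2, a tumour suppressor that acts on resected ends, had 3 and 0 counts in IP, against 1 and 5 in input, and its ratio of 5.67 had an interval of 0.917 to 26.5. RAD50, MRE11 and NBN form the MRN complex, which detects broken ends and starts their resection. Each had 1 and 1 counts in the IP libraries. In input, RAD50 had 3 and 2, MRE11 had 3 and 8, and NBN had 2 and 4, and for these 3 genes both IP libraries lay above both inputs. Their ratios were 4.53, 2.06 and 3.78, with intervals that all held 1. XRCC2, which helps strand exchange, likewise had 1 and 1 counts in IP, against 6 and 7 in input, a ratio of 1.74 (0.191 to 7.70), and it too was higher in both IP libraries, by a narrow margin in SF3B6 IP 1. A single IP count stands above many input levels this low: the same order of libraries held in 55.5% of the 416 nuclear protein-coding genes with 1 to 25 input counts and 1 count in each IP library, and in 7.92% of all 8211 with 1 to 25 input counts. BRCA1, which promotes resection and recruits PALB2, was the best counted gene of the class in input and the one below input in both IP libraries, with 1 and 0 counts in IP against 10 and 15 in input. Its ratio was 0.453 (0.0110 to 2.77), and without BRCA1 the log2 ratio of the class was 1.55. PALB2, the bridge between BRCA1 and BRCA2, had 1 and 0 counts in IP against 0 and 1 in input. BLM, a helicase that dissolves recombination intermediates, had 1 and 0 against 1 and 2, and WRN, a related helicase, had 0 and 0 against 0 and 6.

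The sum of the end joining genes was lower in both IP libraries than in both inputs. Their 11 and 6 counts in IP stood against 141 and 259 in input. The sum was 242 and 261 CPM in IP, against 496 and 528 CPM in input, a mean of 252 ± 13.6 against 512 ± 22.5 CPM (SD, n = 2 libraries each). This IP SD is smaller than the step of a single count (22.0 and 43.6 CPM in SF3B6 IP 1 and 2). It therefore does not measure the precision of the IP sum. The pooled ratio was 0.482 (0.278 to 0.781), from 17 IP counts where the input share would give 35.3. The log2 ratio of means was -1.02, and -1.16 with upper quartile factors, -1.25 with library totals and -2.67 with FPKM-implied totals. These scalings put the median of all tested genes at -0.19, -0.27 and -1.65, against -0.06 with TMM. They lower genes in general, so a sum already low could not change sign under them. Without each library the log2 ratio of the class ran from -1.08 to -0.97.

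PRKDC and XRCC6 made up most of that class. PRKDC encodes the catalytic subunit of DNA-PK, the kinase that holds broken ends together, and it was the best counted of the 30 genes in input. It spans bases 47773111 to 47960136 of chromosome 8 in RefSeq (GRCh38.p14). It had 8 and 3 counts in IP, against 90 and 183 in input, or 176 and 131 CPM against 317 and 373 CPM. Both IP libraries were low and the groups did not overlap. The log2 fold change was -1.12 ± 0.39 SE and did not pass (edgeR adjusted p = 0.113). It passed with no filter on low counts (-1.59, adjusted p = 0.0179), where 0.892% of 18276 genes were called lower. That share includes the genes with too few counts for the default filter. The setting put the median of all genes at -1.23 and lowered the other tested repair genes too, such as LIG1 from 0.83 to 0.35. Leaving PRKDC out left the log2 ratio of the class at -0.76. XRCC6 encodes Ku70, part of the ring that slides onto broken ends, and had 1 and 0 counts in IP against 31 and 37 in input. Its ratio was 0.167 (0.00416 to 0.960) and its log2 fold change -2.54 ± 1.11 SE (edgeR adjusted p = 0.239). XRCC5, which encodes the partner subunit Ku80, had 2 and 0 counts in IP against 11 and 14 in input, a ratio of 0.907 (0.104 to 3.64), and its difference from XRCC6 was not tested. TP53BP1, which shields ends from resection, had 0 and 3 counts in IP against 8 and 22 in input, a ratio of 1.13 (0.221 to 3.64). XRCC4, the partner of ligase IV, had 0 and 0 against 1 and 3, where the input share would give 0.353 IP counts. XRCC5 and TP53BP1 thus lay near the input level, with wide intervals, and the lower class sum rested on PRKDC and XRCC6. The difference between the end joining and homologous recombination sums was seen in the same 4 libraries that define them and was not tested.

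**Figure D3:**
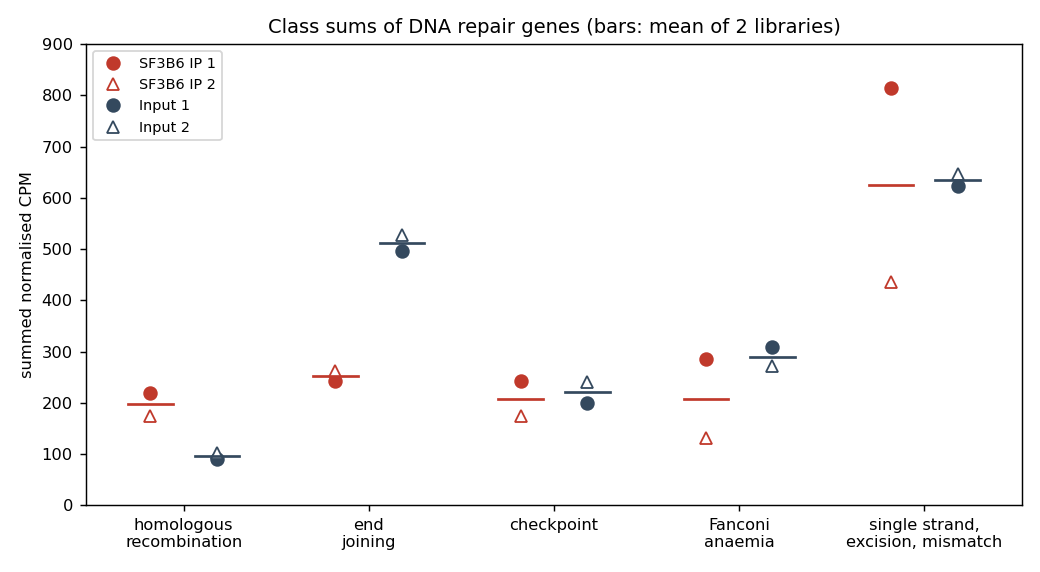
Summed normalised CPM (y axis) of the 5 classes of repair genes in SF3B6 IP 1 and 2 (red) and Input 1 and 2 (dark), with a bar at the mean of each group. Homologous recombination lies higher in both IP libraries (220 and 174 CPM) than in both inputs and end joining lower (242 and 261 CPM), while the other 3 classes overlap.

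Checkpoint genes were recovered at about their input share. Their sum was 242 and 174 CPM in IP, against 201 and 241 CPM in input, with a pooled ratio of 0.971 (0.532 to 1.65) from 15 IP and 175 input counts. ATM, the kinase that answers to double-strand breaks, had 4 and 1 counts in IP, against 32 and 57 in input, with both IP libraries below both inputs at 88.1 and 43.6 CPM against 113 and 116 CPM. Its log2 fold change was -0.65 ± 0.64 SE (edgeR adjusted p = 0.690). ATR, its counterpart at stalled forks, had 0 and 0 against 4 and 7. MDC1, the adaptor that spreads the signal along chromatin, had 4 and 2 counts in IP, against 13 and 35 in input, or 88.1 and 87.1 CPM against 45.7 and 71.3 CPM. Both IP libraries were above both inputs, and the log2 fold change of 0.50 ± 0.68 SE did not pass (adjusted p = 0.814). CHEK1, the effector kinase downstream of ATR, had 1 and 1 counts in IP against 4 and 13 in input, and CHEK2, that of ATM, had 2 and 0 against 4 and 6. Without ATM the log2 ratio of the class was 0.42, against -0.08 with it.

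In the Fanconi anaemia class, FANCA held 14 of the 16 IP counts and 180 of the 221 input counts. FANCA belongs to the core complex that ubiquitinates FANCD2 and FANCI. It had 11 and 3 counts in IP, against 70 and 110 in input, or 242 and 131 CPM against 246 and 224 CPM, so SF3B6 IP 1 stood at the input level and SF3B6 IP 2 below it. Its log2 fold change was -0.18 ± 0.40 SE (edgeR adjusted p = 0.894). FANCD2 had 1 and 0 counts in IP against 7 and 12 in input, FANCI 1 and 0 against 8 and 9, and FANCM, the translocase that anchors the core complex, 0 and 0 against 3 and 2. The class sum was 286 and 131 CPM in IP, against 310 and 271 CPM in input, with a pooled ratio of 0.821 (0.461 to 1.36).

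Single strand, excision and mismatch repair genes gave the most IP counts, 37 and 10, against 177 and 317 in input. Their sum of 815 and 436 CPM in IP lay on both sides of the 623 and 646 CPM in input, with a pooled ratio of 1.08 (0.782 to 1.46). LIG1, the ligase that seals Okazaki fragments and excision gaps, had the most IP counts of all 30 genes, 13 and 4, against 46 and 62 in input. It stood at 286 and 174 CPM in IP, against 162 and 126 CPM in input, with both IP libraries higher. Its log2 fold change was 0.83 ± 0.42 SE and did not pass (edgeR adjusted p = 0.336), and it was 0.10 without SF3B6 IP 1 and -0.80 with the FPKM-implied totals. ERCC2, the XPD helicase of TFIIH in nucleotide excision repair, had 11 and 1 counts in IP, against 44 and 102 in input. At 242 and 43.6 CPM in IP, against 155 and 208 CPM in input, the IP libraries lay on either side of the inputs. Its log2 fold change was -0.10 ± 0.47 SE (adjusted p = 0.962), and it ran from -2.31 without SF3B6 IP 1 to 0.27 without SF3B6 IP 2.

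The remaining genes of that class had at most 6 IP counts each. XRCC1, a scaffold of single-strand break repair, had 5 and 1 counts in IP, against 17 and 16 in input, a ratio of 2.06 (0.706 to 4.98). Its usual partner in that route, LIG3, had 0 and 1 against 8 and 15, a ratio of 0.493 (0.0120 to 3.03). PARP1, the enzyme that senses nicks and the target of PARP inhibitors, had 2 and 1 counts in IP, against 18 and 35 in input (log2 fold change -0.63 ± 0.81 SE, edgeR adjusted p = 0.798). DDB1, an adaptor of the ubiquitin ligase that recognises ultraviolet lesions, had 4 and 1 against 33 and 56 (-0.65 ± 0.64, adjusted p = 0.690). Both IP libraries lay below both inputs for PARP1 and DDB1, by less than the SE for PARP1. MSH6, which finds mispaired bases, had 2 and 1 against 11 and 31.

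Taken gene by gene, 3 of the 30 ratio intervals excluded 1: those of PRKDC (0.225 to 0.830) and XRCC6 below, and that of LIG1 (1.00 to 2.99) just above. All 3 belong to the 9 tested genes, so shares over all tested genes compare with these 9 rather than with all 30. Among all tested genes 7.09% had an interval below 1 and 8.56% one above 1, shares to be read against the unadjusted edgeR ones, since the intervals are not adjusted for the number of genes. For the 4 genes without IP counts (ATR, WRN, FANCM and XRCC4), up to 3 counts could have been missed, which is 3.09, 5.67, 6.80 and 8.50 times the input level, so no depletion was measurable. The 21 genes that were not tested had 35 IP and 312 input counts, a ratio of 1.27 (0.870 to 1.81).

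**Figure D4:**
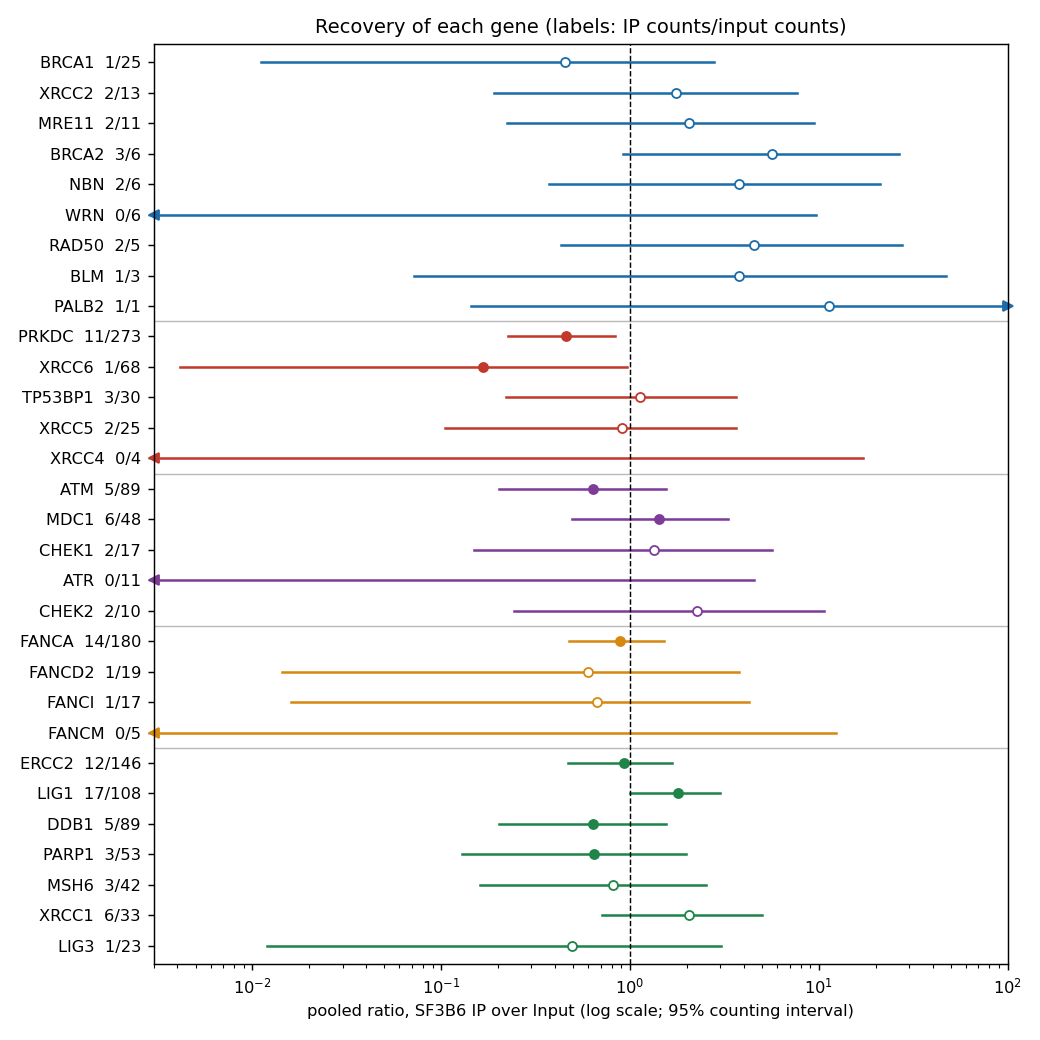
Ratio of pooled counts, SF3B6 IP over Input (x axis, log scale), with its exact 95% counting interval for each of the 30 genes (rows, colours by class). Filled points are the 9 tested genes, genes with 0 IP counts have no point, arrows mark intervals that run off the axis, and the dashed line is a ratio of 1, which all but the intervals of PRKDC, XRCC6 and LIG1 hold.

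Levels per gene length were read from the FPKM values that the authors deposited. In input, XRCC6 (4.50 and 4.48 FPKM), ERCC2 (2.99 and 5.77), FANCA (3.39 and 4.44), PRKDC (2.75 and 4.66) and LIG1 (3.30 and 3.70) were the most abundant, and each overlapped its neighbour in this order. PALB2 (0 and 0.08 FPKM), BLM (0.06 and 0.10) and ATR (0.07 and 0.10) were among the least. In IP the order differed: LIG1 led with 2.61 and 1.21 FPKM, followed by XRCC1 (2.40 and 0.73), ERCC2 (2.09 and 0.29) and FANCA (1.49 and 0.61), while XRCC6 had 0.41 and 0. Each of these 4 overlapped its neighbour in this order too.

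A wider list of 130 further repair genes also held no called gene. The table holds 128 of them, 25 were tested, and 0 were called in either direction (edgeR). At an unadjusted p under 0.05 only 1 of the 25 passed, RECQL4, higher in IP. Among all tested genes 7.93% were higher and 7.72% lower at that threshold. Their median log2 fold change was 0.12, with 14 above and 11 below 0, and their pooled ratio was 1.07 (0.962 to 1.20). RECQL4, a helicase of replication and end resection, had the most IP counts, 41 and 13, against 125 and 248 in input. It was at 903 and 566 CPM in IP, against 440 and 506 CPM in input, and both IP libraries were higher. The log2 fold change was 0.72 ± 0.23 SE (edgeR adjusted p = 0.0835). It passed with a minimum of 50 counts in 2 libraries (0.92, adjusted p = 0.00811), where 80 of 1115 genes were called higher. RECQL4 reached that minimum in the inputs alone, and the setting also raised other repair genes, such as H2AX from 0.46 to 0.66. The log2 fold change of RECQL4 was 0.03 without SF3B6 IP 1 and -0.93 with the FPKM-implied totals. The next by IP counts were H2AX, the histone that marks breaks (log2 fold change 0.46, adjusted p = 0.549), UVSSA of transcription-coupled repair (0.73, 0.386), the polymerase subunit POLD1 (0.06, 0.969), the nuclease MUS81 (0.90, 0.332) and the polymerase POLE (-0.68, 0.381). None of the 5 passed.

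By class, the wider list, taken from the same libraries, was higher in IP for homologous recombination and not lower for end joining. Its 29 homologous recombination genes had 93 and 41 counts in IP, against 386 and 674 in input. This was 2048 and 1787 CPM in IP, against 1358 and 1374 CPM in input, a pooled ratio of 1.43 (1.19 to 1.72), and 1.32 (1.03 to 1.67) without RECQL4. These intervals too leave out the spread between libraries, so their exclusion of 1 is uncertain. On the log2 scale the ratio of means was 0.49 with TMM, 0.35 with upper quartile factors, 0.27 with library totals and -1.13 with FPKM-implied totals. The 14 end joining genes of that list had 37 and 10 counts in IP, against 159 and 323 in input, with a pooled ratio of 1.11 (0.801 to 1.49). The 5 end joining genes first described, at 0.482 in the same libraries, lay below these. Ratios of the wider checkpoint (0.975), Fanconi anaemia (0.773), excision and mismatch (0.923) and translesion (1.04) genes had intervals that held 1.

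The repair genes also share features of position. Their spans in RefSeq (GRCh38.p14, the build of the files being hg38) ran from 17475 bases for MDC1 (chromosome 6, 30699807 to 30717281) to 296927 for XRCC4 (chromosome 5, 83077547 to 83374473), with a median of 69121 against 24098 for RefSeq protein-coding genes. The spans of 22 genes overlap another annotated gene, a protein-coding one in 12, such as ZNF276 at FANCA and KLC3 at ERCC2. The share of all genes with such an overlap was not computed, so these counts only describe the list. LIG1 overlaps LIG1-AS1 and MDC1 overlaps MDC1-AS1, and reads of such partners cannot be told apart here, since no source used here gives the strand setting of the counting. XRCC6 lies on chromosome 22 (41621295 to 41664041), LIG1 on 19 (48115445 to 48170344), ERCC2 on 19 (45349837 to 45370573) and FANCA on 16 (89737549 to 89816647). RefSeq also lists pseudogenes by name, 6 of CHEK2, 5 of XRCC6, 2 each of FANCD2 and PARP1 and 1 each of MRE11 and BRCA1, so the counts of these 6 genes are uncertain.

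Of the 25 genes with a RefSeq promoter entry, 12 (48%) started within 1000 bases of a gene that runs the other way, against 22.1% of 15842 protein-coding genes. The partner's message was counted for some pairs: DCTN5 beside PALB2 had 0 and 1 counts in IP against 13 and 14 in input, DESI1 beside XRCC6 1 and 0 against 3 and 14, and NPAT beside ATM 0 and 0 against 2 and 2. Promoter windows (250 bases before to 50 after the start) were searched on both strands for CCAAT, for the GC box GGGCGG, and for TTTCCCGC or TTTGGCGC, letters known from sites of E2F, a regulator of S phase genes. The E2F letters can overlap a GC box. CCAAT was found in 16 of 25 genes (64%, against 42.1% of protein-coding genes), a GC box in 21 (84%, against 64.3%) and the E2F letters in 5 (20%, against 3.7%), namely FANCD2, LIG1, MSH6, XRCC2 and XRCC6. The 250 bases before the start are printed for LIG1 and XRCC6, the tested genes with the highest and the lowest log2 fold change, with matches to any of these letters in capitals. In LIG1 (chr19:48170345-48170594, minus strand) they mark 4 GC boxes and 1 E2F match that overlap in part. In XRCC6 (chr22:41621045-41621294, plus strand) they mark 3 GC boxes and 1 CCAAT read on the other strand, while its E2F letters end after the start. A match is a description of letters, and the IP libraries measure RNA rather than these windows.
LIG1: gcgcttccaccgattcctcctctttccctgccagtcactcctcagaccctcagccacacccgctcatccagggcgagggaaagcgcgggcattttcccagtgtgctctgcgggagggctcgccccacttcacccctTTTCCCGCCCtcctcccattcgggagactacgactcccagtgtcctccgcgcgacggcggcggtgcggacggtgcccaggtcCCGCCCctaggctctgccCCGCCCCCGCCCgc
XRCC6: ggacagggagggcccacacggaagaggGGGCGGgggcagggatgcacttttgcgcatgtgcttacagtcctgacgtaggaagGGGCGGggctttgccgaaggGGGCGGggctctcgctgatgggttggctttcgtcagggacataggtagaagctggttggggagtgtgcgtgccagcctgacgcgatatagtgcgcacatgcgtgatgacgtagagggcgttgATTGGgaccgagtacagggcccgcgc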

How the data were processed

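RNA of 2 SF3B6 IP and 2 Input libraries of MDA-MB-231 cells was measured. The authors deposited read counts per gene, not normalized, and FPKM values of the same genes (scaled to length and to a library total whose content no source states). Per the submitters' processing notes, HISAT2 and HOMER were used with hg38, and their roles and versions are not given there. No source used here names the counter or its strand setting.

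Counts were tested with edgeR 4.0.16 (R 4.3.3) by quasi-likelihood, with TMM factors (0.968, 0.860 for IP; 1.06, 1.13 for input), the default filter and Benjamini-Hochberg adjustment over 3668 genes at 0.05, and the script was tested on simulated data. The IP libraries differed from each other beyond counting error (chi-square per degree of freedom 4.33), as did the inputs (1.72), so each counted as 1 replicate. SE was derived from the F statistic. FPKM-implied totals are the counts over FPKM between libraries: 0.298, 0.197 and 0.833 of Input 2 for SF3B6 IP 1, SF3B6 IP 2 and Input 1. Alternatives were DESeq2 1.42.0, limma 3.58.1 on FPKM, other scalings, filters and samples.

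The genes, lists and classes were chosen with earlier results of these data known. Values were given in full for genes with at least 10 IP counts or tested, and, of the wider list, for the 6 with the most IP counts. Promoters came from RefSeq (GRCh38.p14).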

Additional observations from a re-analysis of the deposited data

How the results depend on the processing

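The count of repair genes called higher was 0 under every alternative run, and that of repair genes called lower was 0 except with FPKM-implied totals (7), with no filter on low counts (1, PRKDC), and with limma on log2(FPKM + 1) (7) and on log2(FPKM + 0.1) (5). Those FPKM settings called 2098, 2548 and 1865 of all genes lower and 17, 25 and 25 higher, and no filter 163 and 50. For all genes, against 50 lower and 99 higher, library totals gave 90 and 60, upper quartile factors 69 and 67, DESeq2 3 and 35, and a minimum of 50 counts 25 and 80. Without 1 library the counts ran from 5 to 70 lower and from 26 to 94 higher: 15 and 30 without SF3B6 IP 1, 10 and 39 without Input 1, and 5 and 26 without Input 2. Deviations of same-numbered libraries from their group means had a correlation of 0.000443, necessarily the same for both pairs with 2 libraries per group. At a median of 8 IP counts per tested gene, this check could hardly show a shared deviation. A replicate block gave 22 lower and 68 higher genes, and 0 repair genes.

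The median log2 fold change of repair genes was -2.20 with FPKM-implied totals and -1.91 on log2(FPKM + 0.1), and between -0.95 and -0.08 without 1 library, over the genes then tested. FPKM-implied totals moved the class sums to -0.59 (homologous recombination), -2.67 (end joining), -1.70 (checkpoint), -2.02 (Fanconi anaemia), -1.60 (single strand, excision and mismatch) and -1.83 (all 30), with a median of all genes of -1.65. Upper quartile factors and library totals moved end joining to -1.16 and -1.25. Without the best counted gene the sums were 1.55 (homologous recombination), -0.76 (end joining), 0.42 (checkpoint) and -1.32 (Fanconi anaemia). Without genes that overlap another gene they were 1.54 (homologous recombination, 3 genes left), -3.07 (end joining, 1), 0.74 (checkpoint, 1) and -0.73 (excision class, 2). Without 1 library the sums ran from 0.85 to 1.19 (homologous recombination), -1.08 to -0.97 (end joining), -0.34 to 0.14 (checkpoint), -1.15 to -0.02 (Fanconi anaemia), -0.54 to 0.36 (excision class) and -0.58 to 0.04 (all 30). The causes were not tested.

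Log2 fold changes of single genes that changed sign, none of them called by edgeR with TMM and the default filter, were as follows. With FPKM-implied totals, log2(FPKM + 1) and log2(FPKM + 0.1), MDC1 was at -1.07, -0.49 and -0.90, LIG1 at -0.80, -0.67 and -0.93, RECQL4 at -0.93, -0.93 and -1.01, H2AX at -1.17, -1.21 and -1.28, UVSSA at -0.93, -0.60 and -1.15, POLD1 at -1.52, -1.24 and -1.47, and MUS81 at -0.74, -0.74 and -1.11. FANCA was at 0.020 with a minimum of 50 counts. With no filter H2AX was at -0.021 and POLD1 at -0.42, and POLD1 was at -0.076 with upper quartile factors and -0.16 with library totals. Without 1 library ERCC2 ran from -2.31 to 0.27, H2AX from -0.12 to 0.61, UVSSA from -0.57 to 0.98, POLD1 from -0.30 to 0.24 and MUS81 from -0.74 to 1.20, the lowest value being without SF3B6 IP 1 except for POLD1 (without SF3B6 IP 2). Depth limits all of this: 26 of the 30 genes had fewer than 10 IP counts.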
